A study of Mus musculus with 8 samples.

Results

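The 8 genes described here encode the enzymes and transporters through which a mast cell makes, packs, takes up and breaks down histamine and serotonin. They were picked by name from the 55359 genes of the deposited gene table, namely Hdc, Tph1, Ddc, Slc18a2, Slc6a4, Hnmt, Maoa and Maob, and each name matched 1 row. The series holds RNA-seq of 8 peritoneal mast cell (PMC) cultures without any treatment, all from wild-type mice of the strain C57BL/6x129/Sv. Of these, 2 were lines that had arisen spontaneously in ageing, neglected cultures, PMC-303 and PMC-306, with 1 library each and no sex in their labels (the study karyotyped PMC-306 as male), and 6 were primary WT PMC cultures, with 3 cultures of each sex. The lines were grown with IL-3 but with less serum and less stem cell factor (SCF) than the primary cultures, so that medium and transformation cannot be told apart in these libraries. The paper also grew PMC-306 with the serum and SCF of primary cultures. It reports unchanged mRNA of Cdkn2a/Arf, several proteases and Mrgprb2, and none of the 8 genes was among those measured. The comparison asks how these genes are expressed in the lines beside primary WT PMCs, and each line stands for 1 transformation event.

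Histamine is made in 1 step from histidine by histidine decarboxylase. Serotonin is made from tryptophan in consecutive steps, the first and limiting one catalysed by a tryptophan hydroxylase and the next by aromatic amino acid decarboxylase. A proton pump acidifies the secretory granule, and a vesicular monoamine transporter uses this gradient to load both amines into the granule, from which they are set free upon degranulation. Serotonin outside the cell is taken back by the serotonin transporter, monoamine oxidases on the outer membrane of mitochondria oxidise serotonin, and histamine is inactivated by a methyltransferase or a diamine oxidase. Rodent mast cells are known to hold serotonin as well as histamine.

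The libraries held between 15918758 and 24180226 estimated counts. Values are given as CPM, which are counts relative to the TMM-scaled library size, and levels of different genes are compared only as TPM, which are also corrected for transcript length. Where no count was found, up to 3 counts remain possible, or 0.123 to 0.187 CPM in these libraries, and this limit covers counting error only. All 10 mast cell markers were detected, and their summed level was 43660 CPM in PMC-303, 40320 CPM in PMC-306 and from 53260 to 83290 CPM in the primary cultures. Cpa3 was the largest part of this sum in every library, and single markers differed more. Tpsb2 was at 177 (PMC-303) and 20.9 CPM (PMC-306), beside at least 2857 CPM in a primary culture. In the same order, Kit was at 1946 and 2055 CPM, beside at least 3359 CPM. Fcer1a was at 2480 and 1323 CPM, beside at least 3789 CPM. Cpa3, Gata2 and Mitf were below the primary range in neither line. The 5 proliferation markers summed to 2253 CPM in PMC-303, 1874 CPM in PMC-306 and at most 273.6 CPM in a primary culture. The 6 enterochromaffin and neuronal markers summed to at most 0.211 CPM in any library. The 6 macrophage markers summed to 427 CPM in PMC-306, nearly all from Adgre1 with 426 CPM, against 2.43 CPM in PMC-303 and 5.53 to 64.5 CPM in the primary cultures, while C1qb was at 0 in all libraries. Of the platelet and megakaryocyte markers, Ppbp was at 0 throughout and Itga2b, at 1097 to 1960 CPM, made up nearly the whole sum. The part of these differences in the results was not tested.

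Per length, Tph1 led the 8 genes in every library and was among the 66 most abundant of all genes in each of them. It took rank 66 in PMC-306, rank 22 in PMC-303 and a rank from 19 to 24 in the primary cultures. Tph1 alone made up between 80.9% and 86.8% of the summed TPM of the 8 genes. In the primary cultures Tph1 ranged from 3014 to 4716 TPM, Slc18a2 from 244 to 456 TPM, and the ranges of these genes overlapped neither with each other nor with that of Ddc, which lay between 100.1 and 163 TPM. Maob followed with 54.5 to 122 TPM, which overlaps the range of Ddc, although Ddc was above Maob in each single culture. Slc6a4 spanned 2.05 to 70.6 TPM and overlapped both Maob and Hdc, which had 3.21 to 6.68 TPM. Maoa had at most 0.408 TPM, and Hnmt was at 0. In PMC-303 the order was that of most primary cultures. In PMC-306 Ddc stood above Slc18a2, with 191 against 136 TPM, and Maob had dropped behind Slc6a4 and Hdc to 0.534 TPM.

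**Figure D1:**
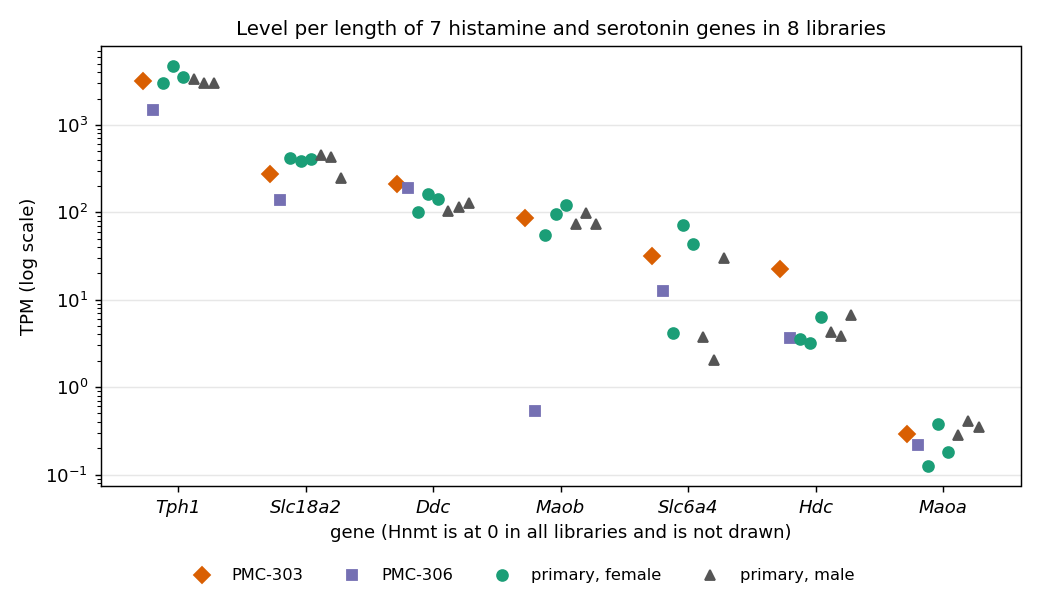
Level per length (TPM, log axis) of 7 of the 8 genes in the 2 lines and the 6 primary cultures, 1 point per library, with the genes in the order of their primary levels. Tph1 lies at 1463 TPM or more in every library, Maob of PMC-306 lies at 0.534 TPM, and Slc6a4 has the widest spread among primary cultures.

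Tph1 encodes tryptophan hydroxylase 1, the peripheral form of the enzyme that limits serotonin synthesis (ENSMUSG00000040046, chr7:46294065-46321965 of GRCm39, minus strand). PMC-303 had 4867 CPM of it and PMC-306 had 2160 CPM. In the primary cultures it ranged from 4673 CPM in male culture 2 to 7710 CPM in female culture 2, with a median of 5272 CPM. PMC-303 was thus inside the primary range and PMC-306 below it, at 38.2% of the primary mean of 5661 ± 1108 CPM (SD, n = 6). With both lines tested together against the primary cultures by limma, the log2 fold was -0.78 (SE 0.31, 95% interval -1.49 to -0.07, adjusted p = 0.0851), so Tph1 did not pass the threshold of 0.05. Without PMC-303 the log2 fold was -1.37 and without PMC-306 it was -0.20, and no p is given where 1 line is left. Over the alternatives that kept both lines the adjusted p ran from 0.0699 to 0.248 (limma). The neuronal form Tph2 had 0 counts in all 8 libraries. In a bulk culture a lower level in every cell and fewer cells with the transcript cannot be told apart.

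The region upstream of the most abundant Tph1 transcript is shown because this gene carried most of the signal of the set and because GATA2, a zinc finger factor that mast cells depend on, was at 582 CPM in PMC-303, 662 CPM in PMC-306 and a median of 577.9 CPM in the primary cultures. The stretch chr7:46316860-46317054 of GRCm39 is printed from the minus strand, leaving out bases that an exon of another Tph1 transcript covers, with matches to GATA on either strand (GATA or TATC) in capitals.
Tph1: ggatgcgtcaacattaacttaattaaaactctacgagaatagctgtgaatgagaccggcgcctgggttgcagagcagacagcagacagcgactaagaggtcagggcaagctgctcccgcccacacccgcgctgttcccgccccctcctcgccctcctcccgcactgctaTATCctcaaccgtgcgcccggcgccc
It holds 1 match. Of 21580 windows of 250 bases upstream of the starts of protein-coding genes, 53% hold at least 1 match on either strand, so that such a match is common and marks no binding site. The full windows of 250 bases held 2 matches for Hdc, 1 for Tph1, 2 for Slc18a2, 1 for Hnmt, 5 for Maoa and 0 for both Ddc and Slc6a4.

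Ddc encodes aromatic amino acid decarboxylase, which turns 5-hydroxytryptophan into serotonin (ENSMUSG00000020182, chr11:11762602-11848150, minus strand). PMC-303 had 325 CPM and PMC-306 274.5 CPM, against 162 CPM in the lowest, 192 CPM in the median and 259 CPM in the highest primary culture. Both lines were above all 6 primary cultures, PMC-306 only by a factor of 1.06 over female culture 2. The log2 fold of both lines was 0.58 (SE 0.21, 95% interval 0.11 to 1.05, adjusted p = 0.0608 by limma) and missed the threshold. It passed with library sizes taken from total counts (0.69, adjusted p = 0.0236 by limma) and with the deposited TPM (0.71, adjusted p = 0.0232 by limma), settings in which the median log2 fold of all genes lies at 0.096 and 0.126 in place of -0.012. It also passed without female culture 2 (adjusted p = 0.0335 by limma) or without male culture 3 (adjusted p = 0.0381 by limma), which are the primary cultures with the highest Ddc. Over the alternatives that kept both lines the adjusted p ran from 0.0232 to 0.151 (limma). A long non-coding gene on the opposite strand, 1700042O10Rik, overlaps Ddc and had 45.9 CPM in PMC-303, 26.96 CPM in PMC-306 and 13.6 to 23.6 CPM in the primary cultures. The libraries were stranded, and whether the counting used the strand is not given in the sources used here.

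Hdc encodes histidine decarboxylase, the enzyme of histamine synthesis (ENSMUSG00000027360, chr2:126435558-126461318, minus strand). Its level was 42.4 CPM in PMC-303, whereas PMC-306 had 7.61 CPM. The primary cultures ranged from 6.19 CPM in female culture 2 to 18.1 CPM in male culture 3, with a median of 7.87 CPM. PMC-303 thus lay 2.35-fold above the highest primary culture and PMC-306 among the primary cultures. Relative to the primary mean of 9.53 ± 4.50 CPM (SD, n = 6) the log2 fold was 2.14 in PMC-303 and -0.32 in PMC-306, while single primary cultures differed from the mean of the other 5 by log2 folds between -0.71 and 1.20. The test of both lines gave 1.02 (SE 0.61, 95% interval -0.38 to 2.42, adjusted p = 0.237 by limma). Without PMC-306 the log2 fold was 2.25 and without PMC-303 it was -0.21, and no p is given where 1 line is left. Over the alternatives that kept both lines the adjusted p ran from 0.148 to 0.516 (limma). In TPM, Tph1 exceeded Hdc between 451-fold and 1471-fold in the primary cultures, 406-fold in PMC-306 and 139-fold in PMC-303.

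**Figure D2:**
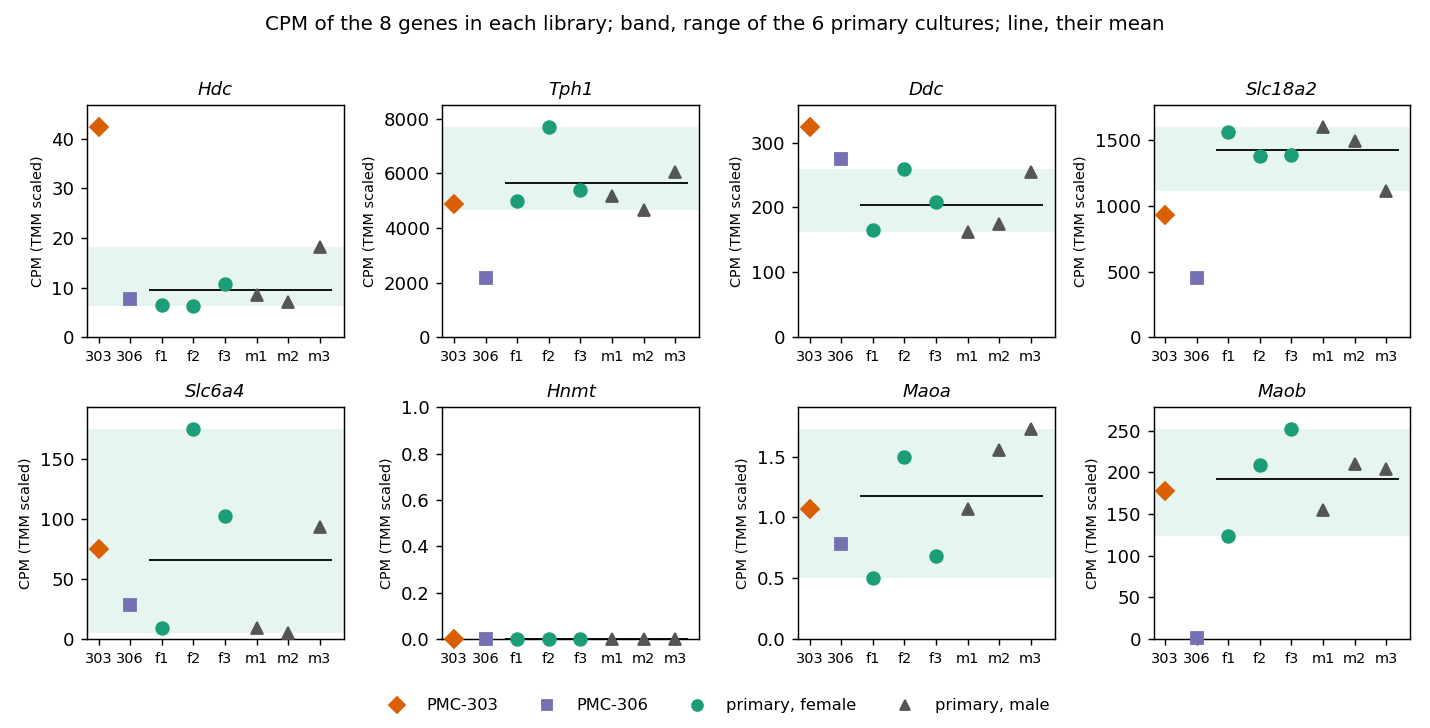
CPM of each of the 8 genes (1 panel per gene, linear axes from 0) in PMC-303, PMC-306, female cultures 1 to 3 and male cultures 1 to 3, with a band for the range of the 6 primary cultures and a line for their mean. Both lines lie below the band for Slc18a2 and above it for Ddc, PMC-303 lies above it for Hdc, and PMC-306 lies below it for Tph1 and Maob.

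Slc18a2 encodes the vesicular monoamine transporter VMAT2, which fills granules with histamine and serotonin (ENSMUSG00000025094, chr19:59249238-59284695, plus strand). PMC-303 had 934 CPM of it and PMC-306 had 454 CPM. The lowest primary culture, male culture 3, had 1117 CPM, the median was 1442 CPM and the highest, male culture 1, had 1606 CPM. Both lines were below all 6 primary cultures, with log2 folds of -0.61 in PMC-303 and -1.65 in PMC-306 relative to the primary mean of 1425 ± 176 CPM (SD, n = 6). In TPM PMC-303 stood at 273, within the primary range, since male culture 3 had 244 TPM, and PMC-306 stood at 136. The other primary cultures had at least 384 TPM. Male culture 3 had low TPM relative to its CPM in other genes of the set too. Its Tph1 was at 6060 CPM and 3014 TPM, beside 5390 CPM and 3499 TPM in female culture 3. The position of PMC-303 in TPM thus rests on this 1 library, and the reason for its low TPM was not tested. Slc18a2 was the 1 gene of the set that passed the test, and it fell by 1.12 on the log2 scale (SE 0.25, 95% interval -1.69 to -0.55, adjusted p = 0.00929 by limma). Without PMC-306 the log2 fold shrank to -0.60, and no p is given where 1 line is left. The call was lost when the primary cultures of 1 sex alone were used (adjusted p = 0.0683 with female and 0.0797 with male cultures, by limma), with the direction kept. Over the alternatives that kept both lines the adjusted p ran from 0.00903 to 0.0797 (limma). Pdzd8 overlaps Slc18a2 on the opposite strand and had 152 CPM in PMC-303, 126 CPM in PMC-306 and 88.3 to 110.2 CPM in the primary cultures.

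Upstream of Slc18a2, the stretch chr19:59248988-59249237 of GRCm39 is given on the plus strand, since this is the gene that passed the test.
Slc18a2: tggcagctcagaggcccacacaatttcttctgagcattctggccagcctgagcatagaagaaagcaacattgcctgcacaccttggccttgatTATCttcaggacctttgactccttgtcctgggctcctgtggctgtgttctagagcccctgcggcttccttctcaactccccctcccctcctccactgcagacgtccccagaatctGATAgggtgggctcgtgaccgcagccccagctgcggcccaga
The capitals mark the 2 matches to GATA or TATC.

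Slc6a4 encodes the serotonin transporter SERT, through which cells take up serotonin (ENSMUSG00000020838, chr11:76888903-76923169, plus strand). It varied most among the primary cultures. It had 8.96, 176 and 103 CPM in female cultures 1 to 3 and 8.99, 4.97 and 93.7 CPM in male cultures 1 to 3. The highest primary culture was 35.3-fold above the lowest, whereas this ratio was at most 3.43 for the other 6 detected genes. Both sexes had cultures at each end, and the labels name nothing that separates female cultures 2 and 3 and male culture 3 from the others. The split was not particular to Slc6a4. Over all genes, female culture 1 and male cultures 1 and 2 were closest to each other. Their chi-square per degree of freedom was 19.1 to 24.2, beside 37.6 to 62.5 for all other pairs. Tpsb2 had 2857 to 4801 CPM in these cultures and 6451 to 10440 CPM in the others. The reason was not tested. PMC-303 with 75 CPM and PMC-306 with 28.8 CPM of Slc6a4 were both inside its primary range and fell in the wide gap between the ends of that range. The lines had a lower mean than the primary cultures, with 51.9 ± 32.7 CPM (SD, n = 2) against 65.95 ± 69.9 CPM (SD, n = 6), and relative to the primary mean the log2 fold was 0.19 in PMC-303 and -1.19 in PMC-306. The fit, which averages log2 values, went the other way, with a log2 fold of both lines of 0.64 (SE 1.43, 95% interval -2.61 to 3.89, adjusted p = 0.761 by limma), an interval that leaves room for changes of many fold in both directions. Its sign turned to -0.24 with female primary cultures only and to -0.05 without PMC-303.

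Hnmt encodes histamine N-methyltransferase, the enzyme of the methylation route of histamine (ENSMUSG00000026986, chr2:23892668-23939872, minus strand). It had 0 counts in all 8 libraries, which allows at most 0.187 CPM, and it was not tested. Aoc1, which encodes diamine oxidase and with it the other route, had 1 count in PMC-306 and 0 in the other libraries.

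Maoa and Maob encode the monoamine oxidases A and B and lie side by side on chromosome X with 20749 bases between them, Maoa at chrX:16485893-16554057 on the plus strand (ENSMUSG00000025037) and Maob at chrX:16574807-16683686 on the minus strand (ENSMUSG00000040147). Monoamine oxidase A is known to prefer serotonin as a substrate. Maoa was low throughout, with 1.07 CPM in PMC-303, 0.786 CPM in PMC-306 and 0.505, 1.28 and 1.73 CPM in the lowest, median and highest primary culture. Both lines were inside the primary range, and the log2 fold was -0.21 (SE 0.46, 95% interval -1.27 to 0.85, adjusted p = 0.757 by limma). Its sign turned to 0.16 with female primary cultures only.

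Maob was by far the more abundant of both in primary WT PMCs. PMC-303 had 178 CPM of it, while in PMC-306 22 counts were found, or 1.08 CPM. The primary cultures had 124 CPM in female culture 1, a median of 206 CPM and 252 CPM in female culture 3. PMC-303 was inside this range, while PMC-306 had 0.562% of the primary mean of 192 ± 45.8 CPM (SD, n = 6) and was 114.5-fold below the lowest primary culture. This was the widest gap between a line and the primary cultures in the set, and it kept its size, with log2 folds from -7.35 to -7.09, under each of the 4 scalings used. Maoa, its neighbour, had 16 counts in PMC-306. The next genes with at least 10 CPM in primary cultures, chosen after their values were seen, were Fundc1, 703 kb away, and Gpr34, 3068 kb away on the other side. In PMC-306 they had 89.9% and 129% of their primary means. The test of both lines gave a log2 fold of -3.69 (SE 1.45, 95% interval -7.00 to -0.38, adjusted p = 0.0830 by limma). Without PMC-303 it was -7.31 and without PMC-306 it was -0.07, and no p is given where 1 line is left. Over the alternatives that kept both lines the adjusted p ran from 0.0815 to 0.267 (limma). In TPM Maob exceeded Maoa between 213-fold and 669.5-fold in the primary cultures, 298-fold in PMC-303 and 2.45-fold in PMC-306. Sequence differences between the lines and the reference were not analysed here.

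**Figure D3:**
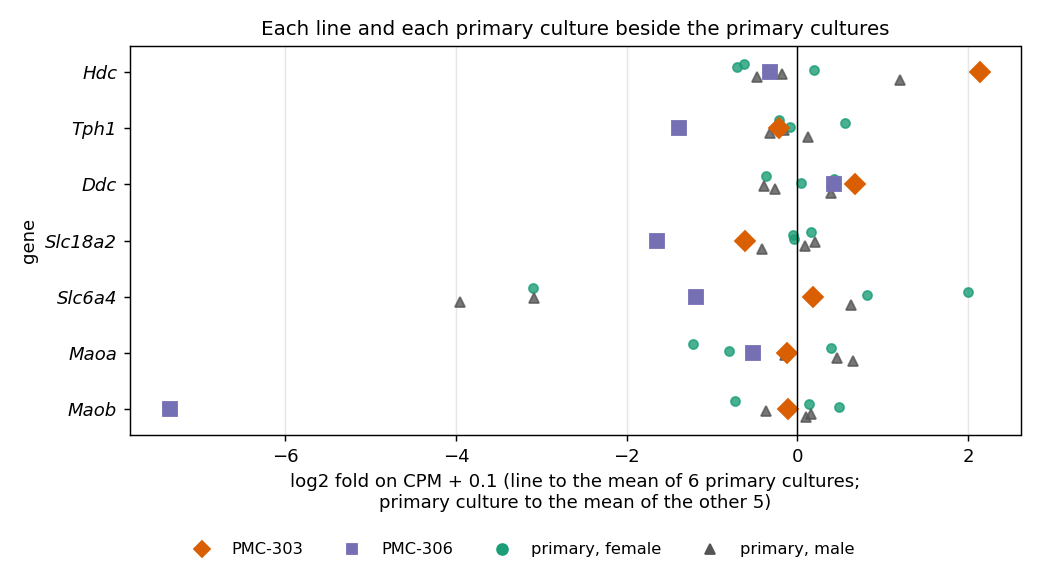
Log2 fold on CPM + 0.1 (horizontal axis) of PMC-303 and PMC-306 to the mean of the 6 primary cultures, with each primary culture beside the mean of the other 5 in small symbols, for the 7 detected genes. PMC-306 lies at -7.35 for Maob and PMC-303 at 2.14 for Hdc, and the primary cultures themselves spread from -3.95 to 2.00 for Slc6a4.

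Over all genes, 14525 were tested in the comparison of both lines with the primary cultures, and limma called 33.8% of them, with 18.3% higher and 15.5% lower. Of the 8 genes, 7 were tested, 1 was lower and 0 were higher, while 4 had an unadjusted p under 0.05 by limma (Tph1, Ddc, Slc18a2 and Maob). The share of all genes under that unadjusted limit was not counted. It is at least the 33.8% that were called, so the 4 genes are not read as a result about the set. A position outside the primary range was common, and no gene is singled out by it. PMC-303 was above the range for 2 of the 8 genes (33.4% of all tested genes) and below it for 1 (30.0%). PMC-306 was above it for 1 (31.9%) and below it for 3 (32.3%). Both lines together were above the range for Ddc (22.9% of all tested genes) and below it for Slc18a2 (20.1%). The lines differed from each other by more than 2-fold in CPM in Hdc, Tph1, Slc18a2, Slc6a4 and Maob, and with 1 library per line these differences have no replicate check. The share of all tested genes that differ as much between the lines was not counted, so this is not read as a trait of the set.

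Between female and male primary cultures, limma called 6 of 13693 genes (0.0438%) and none of the 7 tested genes of the set, each with an adjusted p of 0.999993. With an unadjusted p under 0.05 there were 457 genes, and 0 of the set among them. Maob, which lies on chromosome X, had 195 ± 65.4 CPM in female and 189 ± 30.5 CPM in male cultures (SD, n = 3 each), with a log2 fold of -0.01 for female against male (95% interval -0.65 to 0.63). Tph1 had 6026 ± 1473 CPM in female and 5295 ± 704 CPM in male cultures (95% interval of the log2 fold -0.40 to 0.73). For Slc6a4 the interval ran from -1.66 to 5.16, so that a sex difference of considerable size was not detectable with these cultures. A p that misses the threshold does not show that the sexes were alike.

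Estimated counts per transcript were used to see whether the genes were read from the same transcripts in lines and primary cultures. Tph1-202 made up 80.7% of Tph1 in PMC-306, 83.5% in PMC-303 and 81.0% to 85.6% in the primary cultures. Tph1-201, which starts farther upstream and has the same coding length of 1341 bases, made up 14.8%, 13.8% and 10.8% to 14.5%. The retained-intron transcript Slc18a2-202 made up 14.7% of Slc18a2 in PMC-306, above the primary range of 9.07% to 11.7%, and 10.9% in PMC-303. For Hdc, the retained-intron transcript Hdc-204 made up 10.4% in PMC-306 and 4.33% in PMC-303, against 2.71% to 7.78% in the primary cultures. Ddc-201 made up at least 94.1% and Maob-201 at least 98.5% of their genes in every library. Transcripts that share exons are told apart with uncertainty, and these shares have no test.

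The other genes of the pathway were taken from a list of 71 genes, of which 42 were expressed enough to be tested. In the comparison of both lines, 5 of these were higher (18.3% of all tested genes), 16 were lower (15.5% of all tested genes) and 21 did not pass, with a median log2 fold of -0.20 beside -0.01 over all tested genes. With total counts as library sizes 8 were higher and 13 lower, and the median was -0.09 beside 0.10 over all genes.

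Of the 12 genes for cofactors, 3 were higher and 4 lower, beside 18.3% and 15.5% of all tested genes, whereas with total counts as library sizes 4 were higher and 3 lower. Tetrahydrobiopterin is the cofactor of tryptophan hydroxylase, and Gch1, the first enzyme of its synthesis, had 72.7 CPM in PMC-303, 54.6 CPM in PMC-306 and 69.2 to 188 CPM in the primary cultures. Gch1 fell by 1.12 on the log2 scale (adjusted p = 0.0379 by limma), although PMC-303 was above female culture 3. Gchfr, which encodes a protein that regulates the Gch1 enzyme, rose with a log2 fold of 1.5 (adjusted p = 0.0334 by limma). Pcbd1, which takes part in regenerating the cofactor, rose with a log2 fold of 1.71 (adjusted p = 0.00604 by limma) and was at 17.7 and 14.3 CPM in PMC-303 and PMC-306 beside 2.85 to 7.76 CPM. Pts, the next enzyme of the synthesis, fell by 0.31 on the log2 scale (adjusted p = 0.00932 by limma). Both decarboxylases, Hdc and Ddc, use pyridoxal phosphate, and Pdxk, a kinase that makes it, fell by 0.95 on the log2 scale (adjusted p = 0.000593 by limma), with 145 CPM in PMC-303, 108 CPM in PMC-306 and at least 218 CPM in the primary cultures. Mat2a, which makes the methyl donor that histamine methylation uses, had the highest mean TPM of these genes and a log2 fold of 0.10 (adjusted p = 0.344 by limma).

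The 3 amino acid uptake genes all passed the test, as did 33.8% of all tested genes, with 1 higher and 2 lower. Slc7a5, a light chain of a transporter of large neutral amino acids such as tryptophan, was at 144.5 CPM in PMC-303, 93.2 CPM in PMC-306 and 10.6 to 30.5 CPM in the primary cultures, and rose with a log2 fold of 2.55 (adjusted p = 0.001 by limma). Slc7a8, the other light chain, was at 44.1 and 39.8 CPM in the lines beside 107 to 173 CPM and fell by 1.76 on the log2 scale (adjusted p = 0.000194 by limma). The shared heavy chain Slc3a2 fell by 0.67 on the log2 scale (adjusted p = 0.00977 by limma).

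None of the 5 further amine transporter genes reached the filter. Slc18a1, the other vesicular monoamine transporter, had at most 7 counts in a library, whereas Slc22a2 and Slc22a3 had 0 counts in all libraries. Of 12 further enzymes 5 were tested, of which Aldh9a1 rose (log2 fold 0.91, adjusted p = 0.00124 by limma) and Aldh2 fell by 0.99 on the log2 scale (adjusted p = 0.000372 by limma). These encode aldehyde dehydrogenases, which act on the aldehydes that amine oxidation leaves. Aldh3a2 had a log2 fold of -0.22 (adjusted p = 0.128 by limma).

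Of the 22 genes for the vesicular proton pump that drives loading of granules, 19 were tested, 8 were lower and 0 higher (15.5% and 18.3% of all tested genes), with a median log2 fold of -0.28 beside -0.01 over all tested genes, whereas with total counts as library sizes 6 were lower and 2 higher and the median was -0.17 beside 0.10. The accessory subunit gene Atp6ap1 fell by 0.75 on the log2 scale (adjusted p = 0.000840 by limma), from 328 to 407 CPM in the primary cultures to 239 CPM in PMC-303, and PMC-306 had 197 CPM. Atp6v0c, for the membrane ring of the pump, fell by 0.58 (adjusted p = 0.00103 by limma) and the accessory subunit gene Atp6ap2 fell by 0.55 (adjusted p = 0.0102 by limma). Atp6v1a, for a catalytic subunit, fell by 0.42 (adjusted p = 0.0376 by limma), and Atp6v0b, the gene of this group with the highest mean TPM, had a log2 fold of -0.19 (adjusted p = 0.0810 by limma). The pump serves other acidic compartments too.

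**Figure D4:**
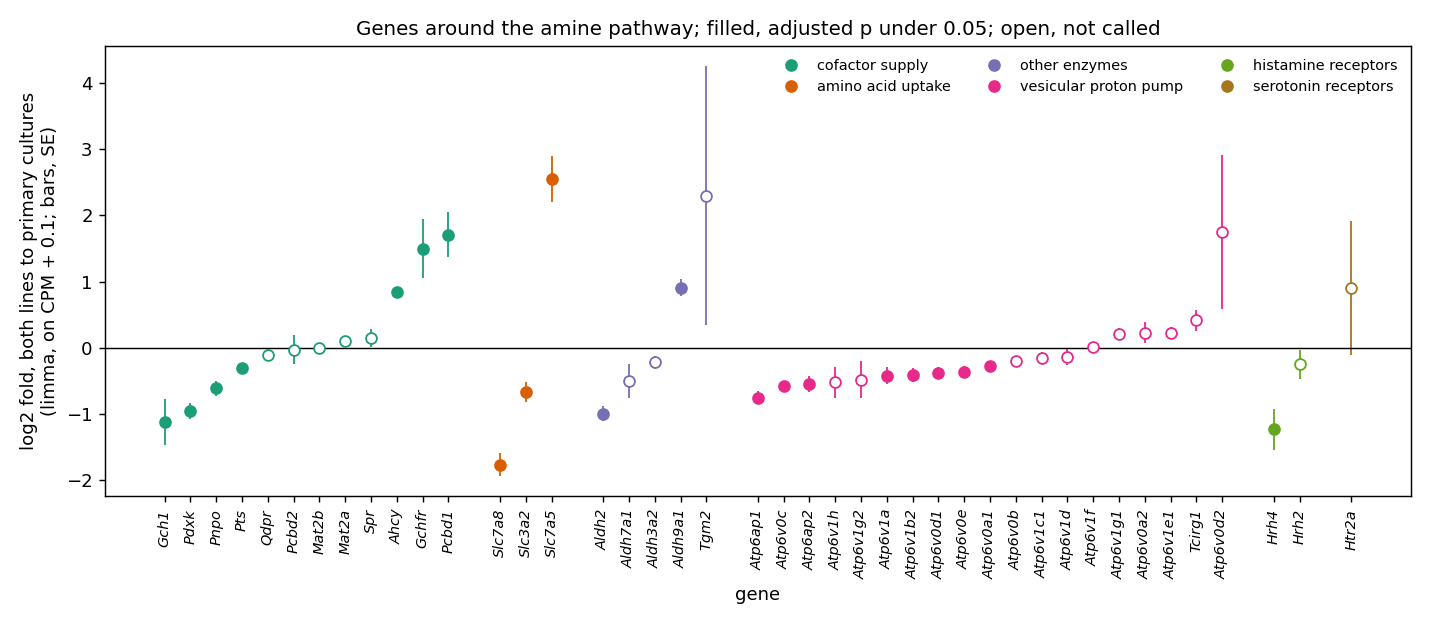
Log2 fold of both lines to the 6 primary cultures (limma, bars are SE) for the 42 tested genes around the amine pathway, by part of the list, with filled symbols for an adjusted p under 0.05. The 8 called pump genes lie below 0 (with total counts 2 pump genes were called higher), and Slc7a5 at 2.55 and Slc7a8 at -1.76 lie at the ends of the called genes.

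Of the 4 histamine receptor genes, Hrh2 and Hrh4 had at least 1 CPM. PMC-303 had 41.5 CPM of Hrh4 and PMC-306 had 17.3 CPM beside 47.2, 66.1 and 79.8 CPM in the lowest, median and highest primary culture, and it fell by 1.23 on the log2 scale (adjusted p = 0.0150 by limma). Hrh2 had 45.1 and 27.8 CPM in PMC-303 and PMC-306 beside 30.8 to 51.5 CPM (log2 fold -0.25, adjusted p = 0.412 by limma). Hrh1 had at most 8 counts in a library and Hrh3 at most 1. Of the 13 serotonin receptor genes 12 had 3 counts or fewer in every library, and 5 of them had 0 counts throughout. The exception was Htr2a, with 1.23 CPM in PMC-303, 5.70 CPM in PMC-306 and 0.220 to 3.86 CPM in the primary cultures (log2 fold 0.90, adjusted p = 0.526 by limma).

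The genes whose level followed each member most closely over the 8 libraries are given as a description, among 8750 genes that averaged 10 CPM or more, and lines and primary cultures are mixed in these correlations. Slc18a2 was followed most closely by Mvb12b (Pearson r = 0.995) and Phkb (0.989). Tph1 was followed by Klhl5 (r = 0.984), L3mbtl3 (0.983) and Ell2 (0.981), Ddc by Tmem167 (0.972), Btaf1 (0.970) and Ncoa5 (0.964), and Hdc by Oaf (0.939), Fance (0.938) and Ppp2r5d (0.924). Maob was followed by Pnma1 (r = 0.996), Eps15 (0.995) and Zfp966 (0.99), which were lower in PMC-306 as well. Pnma1 had 1.62 CPM there beside 10.9 to 13.8 CPM in the other libraries. For Eps15 these values were 35.0 CPM beside 67.9 to 78.3 CPM, and for Zfp966 6.41 CPM beside 28.1 to 36.5 CPM. Maob varied mostly through PMC-306, so these correlations rest largely on that 1 library. For Slc6a4 these were Cetn4 (r = 0.982), Ralgds (0.979) and Akna (0.979). Cetn4 had 29.3, 23.4 and 22.6 CPM in female cultures 2 and 3 and male culture 3 but stayed at or under 3.53 CPM in female culture 1 and male cultures 1 and 2, and Slc6a4 was high and low in those same cultures.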

How the data were processed

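Per the labels and the paper's methods, the authors made stranded libraries of total RNA and ran the nf-core RNA-seq pipeline, in which Trim Galore 0.6.7 trimmed the reads, STAR 2.7.9a placed them on GRCm39 and Salmon 1.5.2 estimated abundances. The files deposited hold estimated counts of genes and of transcripts, which are not normalized, and gene TPM, which are scaled for length and depth. A spreadsheet with German settings had rewritten 3.37% of the gene count cells (6 of 64 for the 8 genes) and 21.8% of the TPM cells (47 for the 8 genes, of which the point was placed from the counts in 4). Restored gene counts were within 0.2 counts of their transcript sums for 99.7% of values.

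Counts were divided by TMM library sizes. limma 3.58.1 (R 4.3.3) was fitted to log2(CPM + 0.1) with a trend for 14525 genes with about 10 counts in enough libraries and 15 in total, with Benjamini-Hochberg adjustment, a two-sided test and a threshold of 0.05. edgeR and DESeq2 were not used, since the tables hold rewritten cells. All p-values measure the spread between these cultures. Log2 folds are on values to which 0.1 CPM was added (0.1 TPM where TPM were fitted), and other folds and percentages are plain ratios. On simulated data with 200 genes changed 4-fold, 94.5% were recovered in the comparison of the lines (5 false calls, 14317 genes run) and 93% in that of the sexes (14 false calls, 13674 genes run). The simulated lines varied only as much as primary cultures, and the changed genes were drawn from well-counted ones. These rates therefore do not cover smaller folds, weakly expressed genes or lines that differ from each other. No primary libraries agreed within sampling noise, with a chi-square of 19.1 to 62.5 per degree of freedom.

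The 8 genes, the pathway list and the markers were chosen with earlier results of these data known. Genes named from the list are the 2 with the highest mean TPM and up to 4 called genes with the largest fold per part, and receptors at 1 CPM or more. A few genes and 1 promoter window that fall under these choices are not reported here. Neighbouring genes, genes overlapping on the other strand, Tph2, Aoc1, Slc22a2, Slc22a3, Hrh1 and Hrh3 were named in addition. Loci and promoter windows come from GENCODE M39 and the genome sequence of GRCm39, and the authors' annotation release is not given in the sources used here. Other offsets, scalings, filters and choices of libraries were tried. Tables outside limma were made in Python 3.11.15 (numpy 2.4.6, pandas 2.3.3, pysam 0.24.0).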

Additional observations from a re-analysis of the deposited data

Results flagged for a closer look

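In CPM, Hdc in male culture 3 stood apart from the other primary cultures. Its 18.1 CPM left a gap to the next culture, female culture 3 with 10.65 CPM, that spanned 0.6254 of the whole range of the 6 primary cultures (0.625 when rounded), just past the limit of 0.625 for 6 values. In the deposited TPM it did not stand apart, with 6.68 TPM beside 6.33 TPM in female culture 3. The TPM of male culture 3 were low relative to its CPM for Tph1 and Ddc as well. The TPM therefore do not settle whether Hdc stood apart there. The highest and the lowest culture were examined in this way for 7 genes, and chance alone marks about 1 in 20 groups. Without male culture 3 the log2 fold of both lines for Hdc was 1.22 (adjusted p = 0.148 by limma), in place of 1.02. Over the alternatives that kept both lines the adjusted p ran from 0.148 to 0.516 (limma).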

How the results depend on the processing

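In the comparison of both lines, 1 gene of the set was called, 2 with total counts or deposited TPM (Slc18a2 and Ddc), and 0 with female or with male primary cultures only. With a single primary culture left out, 1 or 2 were called. The log2 fold of Ddc was 0.69 with total counts and 0.71 with TPM, and that of Slc18a2 was -1.15 with female and -1.09 with male cultures only, while for Slc6a4 and Maoa it turned to -0.24 and 0.16 with female cultures only. When each library was left out in turn, the log2 fold ranged from -0.21 to 2.25 for Hdc, -1.37 to -0.20 for Tph1, 0.46 to 0.70 for Ddc, -1.64 to -0.60 for Slc18a2, -0.05 to 1.33 for Slc6a4, -0.41 to -0.01 for Maoa and -7.31 to -0.07 for Maob. Over all genes 4913 were called, 4228 to 4656 with a primary culture left out, 2158 with female cultures only (1326 higher, 832 lower) and 3027 with male cultures only (1241 lower). Deposited TPM gave 983 lower genes. The share of calls that were higher was 54.1%, 67.2% with total counts and 70.7% with TPM. With total counts 2 pump genes and 8 genes of the whole pathway list were higher. Slc18a2 kept its call with offsets of 0.5 and 1 CPM, median-of-ratios scaling, no filter and voom weights. The cause of these shifts was not tested.

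In the comparison of sexes no gene of the set was called under any alternative, and the log2 fold changed sign with a library left out for Tph1 (-0.02 to 0.29), Ddc (-0.06 to 0.30), Slc18a2 (-0.10 to 0.16) and Maob (-0.23 to 0.29). With the replicate number as a block 5 genes were called in place of 6. The numbers were not taken as pairs. Deviations of same-numbered cultures correlated at 0.404, -0.218 and 0.282. Those of differently numbered cultures ran from -0.592 to 0.418, so the same number did not mark the highest correlation. An edgeR or DESeq2 fit was not run, because the deposited columns hold cells rewritten as text. With 1 library per line, the spread between cultures of a line is unknown. Depth limits Hnmt and the receptors at 3 counts or fewer, where 0.123 to 0.187 CPM would go unseen.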
